A study of Mus musculus with 4 samples.

Results

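The CD300 receptors are a family of immunoglobulin-like proteins on the surface of myeloid cells, and the 6 family genes described here are Cd300a, Cd300lf, Cd300lb, Cd300c2, Cd300ld and Cd300e. They were chosen by name, with no measured value in the rule, and are 6 of the 32285 gene rows in the deposited matrices. Another 6 rows have a symbol that starts with Cd300 (Cd300c, Cd300ld2, Cd300ld3, Cd300ld4, Cd300ld5 and Cd300lg) and serve as comparison genes.

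Members of the family carry an immunoglobulin-like domain that binds lipids, among them lipids exposed on dying cells, and they signal in opposite directions. Cd300a and Cd300lf have inhibitory tyrosine motifs in their own tails, whereas activating members have short tails and signal through the adaptors Tyrobp (DAP12) and Fcer1g (the Fc receptor gamma chain). In the liver, monocytes, macrophages, neutrophils and dendritic cells are the leukocytes in which such receptors set how strongly dying cells and microbial products are answered.

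The study asked how the microRNA miR-146a and the chemokine Ccl5 bear on liver cancer and its immune cells in mice. CD45+ cells from the livers of female C57BL/6 mice were profiled by 10x Genomics 5′ single-cell RNA-seq in 4 libraries, 1 per group. Wild-type (WT), miR-146a-/- and miR-146a-/- Ccl5-/- (DKO) mice had received diethylnitrosamine (DEN) at 25 mg/kg at 14 days of age, were placed at weaning at 21 days on a choline-deficient diet with 60% fat (CDHFD), and were 36 weeks old. The remaining library came from untreated WT mice of 8 weeks, called young WT here, and the number of mice behind a library is not given in the sources used here. Both knockouts are deletions carried by every cell of the mouse.

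The files held 10985 cells and 90756272 UMIs in young WT, 9120 cells and 103165826 UMIs in treated WT, 8393 cells and 88706063 UMIs in miR-146a-/- and 10623 cells and 103147246 UMIs in DKO. After filters on features and mitochondrial UMIs, 10283, 8329, 7824 and 9850 cells were kept, with median depths of 6782, 8210, 7910 and 7558 UMIs. Pairs of libraries shared between 109 and 150 cell barcodes, 1.26% to 1.64% of the smaller library of the pair. With 1 library per group, no difference below has a replicate check. Levels are counts per 1000000 UMIs of a class (CPM), which for 5′ counts need no term for transcript length, and the 95% intervals beside them are exact and cover counting error only.

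Cells were sorted into 15 classes by marker genes, none of them a Cd300 gene, and 9 of the classes were taken as myeloid, with the Negr1 Fcgr4 cells and the mixed T and myeloid cells kept apart. Patrolling monocytes needed at least 2 UMIs of Treml4 and Ace summed, at least 2 of Adgre4, Eno3 and Spn summed and at least 2 of Lyz2, with fewer than 2 of Ly6c2, and C1q macrophages at least 3 UMIs of the C1q genes. The libraries, in the order young WT, treated WT, miR-146a-/- and DKO, held 59, 91, 529 and 836 patrolling monocytes, 37, 129, 99 and 220 C1q macrophages, 45, 63, 89 and 168 cDC2 and 20, 23, 66 and 76 neutrophils. The thresholds were settled over several rounds after marker counts and Cd300 levels under earlier versions had been seen. Cells that met no gate made up 39.9% of young WT, 29.8% of treated WT, 21.8% of miR-146a-/- and 25.1% of DKO, so values by class describe the gated cells. Kupffer cells, the resident macrophages of the liver, passed their gate in only 37 cells over the 4 libraries and basophils in 3, and neither was compared. The mixed class holds cells with UMIs of T cell genes and of Lyz2, and no doublet caller was run.

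Ccl5, the gene deleted in DKO mice, stood at 6174 CPM in young WT, 12544 in treated WT, 12496 in miR-146a-/- and 65.4 in DKO over all kept cells. In CD8 T cells the libraries held 10754, 28011, 28916 and 160.0 CPM. The DKO library was the low one in both, as its label has it, and miR-146a itself was not analysed here.

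The 6 members lie together on chromosome 11 within 244 kb, at chr11:114890041-115133992 of GRCm38.p6, with 5 on the minus strand and Cd300a alone on the plus strand. The same stretch holds 5 of the other Cd300 rows, while Cd300lg lies 12.8 Mb away. No member overlaps another gene on its own strand, but Cd300lb overlaps Gm11699 and Cd300lf overlaps Rab37 on the opposite one. Cd300ld2, Cd300ld3, Cd300ld4 and Cd300ld5 are named after Cd300ld, and Cd300c2 after Cd300c. Transcripts of these genes were not compared here. Reads may be shared between them if they are alike, so their counts carry that uncertainty.

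RefSeq promoters, from 250 bases before to 50 bases after the start of the gene, were found for all 6 members. Those of Cd300ld and Cd300e are shown because these genes moved together in patrolling monocytes; both are on the minus strand of GRCm38.p6, Cd300ld at chr11:114989837-114990136 and Cd300e at chr11:115061990-115062289. Capitals mark AGGAAGT, the core letters of the sequence bound by the myeloid factor PU.1.
Cd300ld: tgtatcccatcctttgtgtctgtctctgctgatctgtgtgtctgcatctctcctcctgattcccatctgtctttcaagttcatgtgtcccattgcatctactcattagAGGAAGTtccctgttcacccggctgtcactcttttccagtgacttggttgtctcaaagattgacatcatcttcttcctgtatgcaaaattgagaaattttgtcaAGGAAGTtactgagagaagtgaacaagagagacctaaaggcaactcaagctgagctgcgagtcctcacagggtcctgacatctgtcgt
Cd300e: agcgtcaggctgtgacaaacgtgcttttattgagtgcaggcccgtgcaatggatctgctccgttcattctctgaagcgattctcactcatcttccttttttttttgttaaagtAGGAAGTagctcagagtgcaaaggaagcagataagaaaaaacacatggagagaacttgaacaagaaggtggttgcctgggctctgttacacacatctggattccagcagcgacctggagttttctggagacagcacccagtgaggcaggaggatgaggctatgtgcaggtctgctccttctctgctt
These letters, read on both strands, were in the promoters of 4 of the 6 members and of 9.35% of 32851 promoters of that length. They occurred at positions 109 and 213 of the Cd300ld window, 225 of Cd300c2, 114 of Cd300e and 252 of Cd300lf, and not in the windows of Cd300a or Cd300lb. The longer string GAGGAAGT, which contains the core, was at position 108 in Cd300ld and 251 in Cd300lf and in 3.20% of all promoters. Of the other letters searched, none matched a member window: TTGCAAAA (1.09% of promoters), CACACCC (7.95%), AAAGGTCA (1.51%) and TGAGTCA (5.20%). The motifs were picked after the member promoters had been viewed, and a match only describes the letters.

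Over all kept cells, the family was rarest in young WT and most frequent in DKO. Cd300c2 rose from 44.1 CPM in young WT to 111 in treated WT, 153 in miR-146a-/- and 229 in DKO, and Cd300a from 29.4 to 89.4, 133 and 186. Cd300e went from 4.60 to 5.36, 38.3 and 74.6 CPM. These sums depend on how many myeloid cells a library holds: patrolling monocytes were 0.574% of kept cells in young WT, 1.09% in treated WT, 6.76% in miR-146a-/- and 8.49% in DKO. The levels below are therefore given within classes.

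Cd300a, the inhibitory receptor for phosphatidylserine and phosphatidylethanolamine, was spread widely over the myeloid classes. Summed over libraries, its level was 479 CPM in monocytes with both Ly6c2 and Treml4 or Ace, 474 in patrolling monocytes, 474 in cDC2 (the conventional dendritic cells of type 2) and 443 in cells marked by Negr1 and Fcgr4. Neighbours in that order overlapped within counting error. The order of patrolling monocytes and cDC2 differed by library. Patrolling monocytes were above cDC2 in both WT libraries (490.0 against 335 CPM in treated WT). They were below it in both knockout libraries (488 against 533 CPM in DKO). C1q macrophages followed with 379 CPM, classical monocytes with 316 and neutrophils with 254, and plasmacytoid dendritic cells (pDC) stood at 87.7. Neutrophils varied by library, with 453 CPM in young WT, 528 (421 to 654) in treated WT, 163 in miR-146a-/- and 283 in DKO. In treated WT they were at or above patrolling monocytes (490.0), with overlapping intervals, so their place in the summed order is mainly that of the knockout libraries. B cells, given as a class with little of the gene, held 1.09 CPM in young WT, 5.48 in treated WT, 2.43 in miR-146a-/- and 8.89 in DKO.

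Cd300lf, the inhibitory receptor that binds ceramide, had another order from Cd300a. Summed over libraries, it was highest in Negr1 Fcgr4 cells at 218 CPM and in neutrophils at 159, then in pDC at 94.1. Neutrophils ranged from 128 CPM to 489, the latter in young WT. Negr1 Fcgr4 cells, with 1 cell in each WT library, held 352 CPM in miR-146a-/- and 214 in DKO, both below that young WT value. C1q macrophages, classical monocytes, cDC2 and the Ly6c2+ Treml4/Ace+ monocytes formed a group from 53.6 down to 35.8 CPM in which neighbours overlapped. Patrolling monocytes were low for this gene. They held 19.2 CPM (8.78 to 36.4) in young WT, 19.1 (11.2 to 30.7) in treated WT, 15.3 (12.0 to 19.4) in miR-146a-/- and 22.4 (19.1 to 26.1) in DKO. B cells held 6.20, 13.7, 8.26 and 13.5 CPM in these libraries and CD8 T cells 1.40, 1.41, 1.68 and 9.80. The B-cell level thus stood above that of CD8 T cells in each library and is no floor for this gene.

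Cd300lb, which pairs with DAP12, was low next to Cd300a and Cd300c2 when libraries were summed. Neutrophils at 89.7 CPM and patrolling monocytes at 77.1 overlapped, and the classical, Ly6c2+ Treml4/Ace+, Negr1 Fcgr4 and C1q classes followed between 61.2 and 49.5, each overlapping the next. The gene then fell to 18.4 CPM in cDC2 and 2.24 in pDC. Neutrophils varied by library, with 250.5 CPM (155 to 383) in young WT, where Cd300c2 overlapped it, 153 in treated WT, 84.1 in miR-146a-/- and 74.7 in DKO. In B cells it was at 0 in young WT and miR-146a-/-, 0.161 CPM in treated WT and 0.148 in DKO.

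Cd300c2, which can signal through DAP12 and the Fc receptor gamma chain, was the most abundant member in patrolling monocytes. It held 892 CPM (808 to 981) there in young WT, 643 (592 to 698) in treated WT, 723 (698 to 748) in miR-146a-/- and 751 (732 to 772) in DKO. Young WT was the high library and treated WT the low one, and their intervals met neither each other nor those of the knockout libraries. Summed over libraries, patrolling monocytes (739 CPM) and Negr1 Fcgr4 cells (721) overlapped at the top. C1q macrophages followed at 564. Then came cDC2 at 407 and the Ly6c2+ Treml4/Ace+ monocytes at 397, which overlapped, neutrophils at 309 and the mixed T and myeloid cells at 290.4, which overlapped too, classical monocytes at 220.0 and cDC1 at 149.

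Cd300ld, which signals with the Fc receptor gamma chain, was highest in patrolling monocytes. The class held 446 CPM (387 to 511) in young WT, 177 (150.3 to 207) in treated WT, 417 (399 to 437) in miR-146a-/- and 372 (358 to 386) in DKO. Treated WT was the low library, with an interval below all others. Summed over libraries, 377 CPM in patrolling monocytes was followed by 258 in Negr1 Fcgr4 cells, 193 in neutrophils, 126 in C1q macrophages and 53.4 in cDC2, and the Ly6c2+ Treml4/Ace+ monocytes, at 123, overlapped C1q macrophages.

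Cd300e, whose human counterpart is an activating receptor of monocytes, fell most steeply over its top classes when libraries were summed. Its class in place 3 stood at 12.4% of its top class, and that of each other member at 43.2% or more. Negr1 Fcgr4 cells held 609 CPM and patrolling monocytes 259 when libraries were summed, and C1q macrophages (75.4) and neutrophils (70.9) followed and overlapped. Patrolling monocytes held 282 CPM (236 to 334) in young WT, 67.6 (51.6 to 87.0) in treated WT, 275 (260.1 to 291) in miR-146a-/- and 271 (259 to 283) in DKO. As for Cd300ld, treated WT alone was low, and the other libraries overlapped. Patrolling monocytes carried 34.2%, 13.3%, 41.2% and 27.7% of all Cd300e UMIs of the kept cells in these libraries. The mixed T and myeloid cells carried 31.9%, 39.7%, 17.8% and 7.67% of them and cells that met no gate 19.7%, 20.4%, 20.1% and 29.3%. The 9 myeloid classes held 46.1%, 37.0%, 54.6% and 37.1% of the Cd300e UMIs and 40.1%, 31.2%, 57.8% and 58.0% of those of Cd300a.

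**Figure D1:**
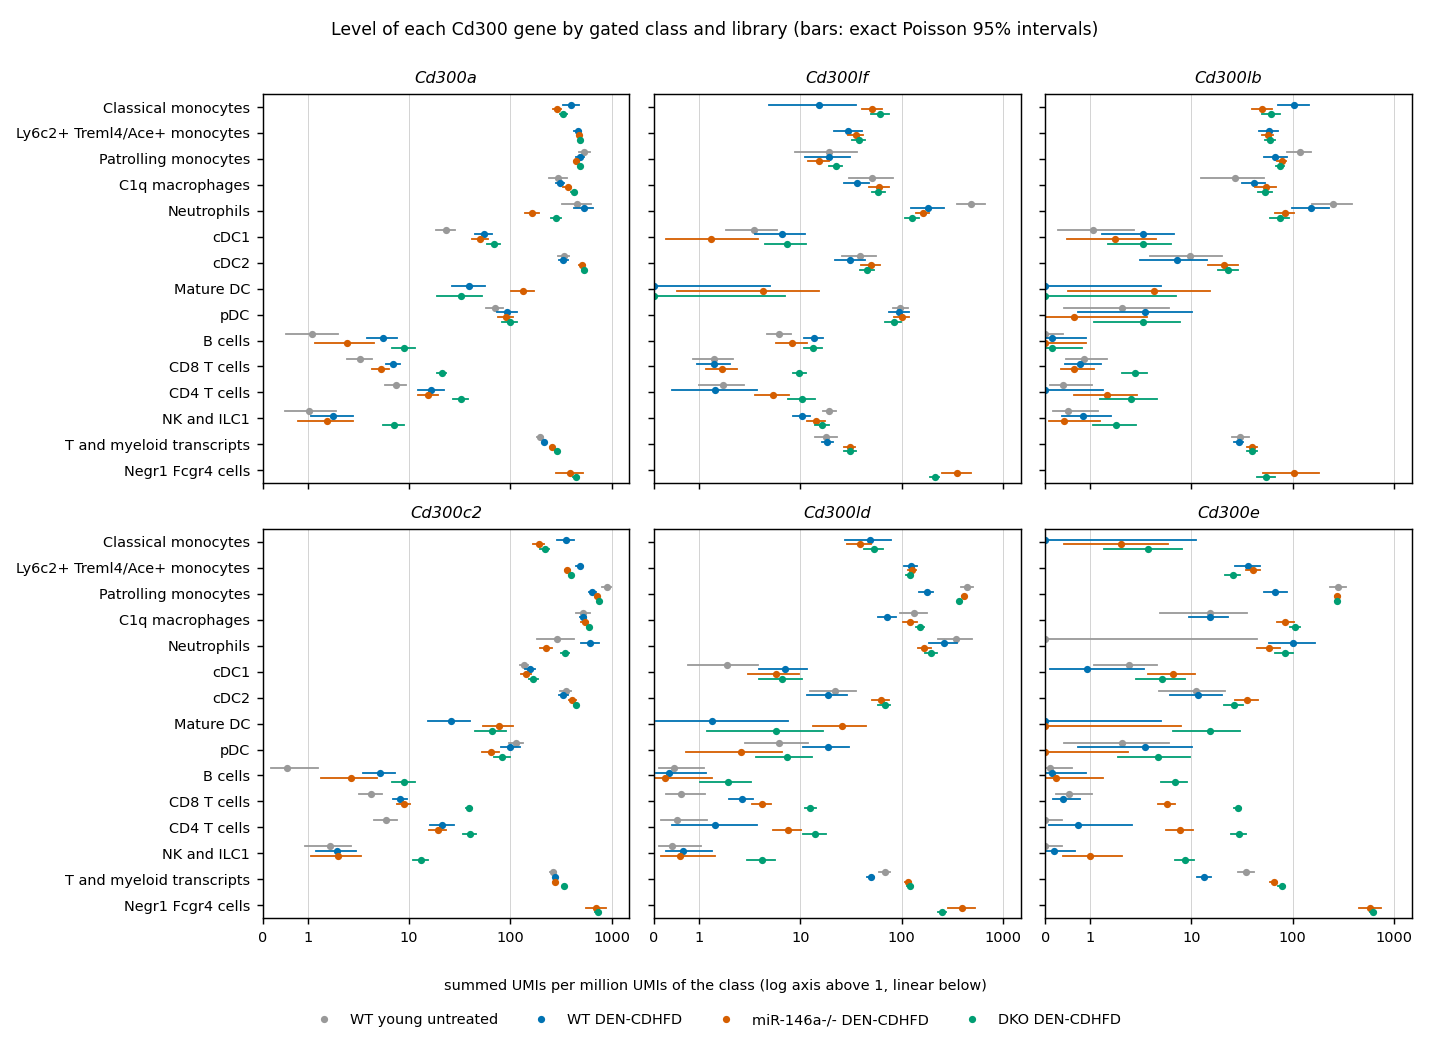
CPM of the 6 members in each class (vertical axis) on a shared horizontal axis, with 1 point per library and bars for exact Poisson 95% intervals; classes with fewer than 20 cells in a library are not drawn for it. Cd300e in patrolling monocytes shows treated WT at 67.6 CPM against 282, 275 and 271 in the other libraries.

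Among the 24 pairs of a member and a library, 12 had patrolling monocytes as the highest of the 9 myeloid classes. These were Cd300c2 in 4 libraries, Cd300e in 3, Cd300ld in 3, Cd300a in young WT and Cd300lb in DKO. Some of these places were ties within counting error. Cd300lb in DKO stood at 74.9 CPM in patrolling monocytes and 74.7 in neutrophils. Cd300c2 in treated WT stood at 643 and 617 CPM in these classes, with overlapping intervals. In treated WT, where the class of 23 neutrophils held 261 CPM of Cd300ld and 102 of Cd300e, neutrophils stood above patrolling monocytes for both. Under the stricter gate described below, patrolling monocytes of treated WT held 268 CPM of Cd300ld and 134 of Cd300e, so this order depends on the gate. Sums over libraries weigh miR-146a-/- and DKO most, which supplied 529 and 836 of the 1515 patrolling monocytes.

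Patrolling monocytes arise in blood from classical ones, and the gates hold classical cells, marked by Ly6c2 and Ccr2, patrolling cells, marked by Treml4 and Ace, and cells with both sets. Cd300e and Cd300ld differed most along these 3 classes. In DKO, Cd300e stood at 3.74 CPM in classical, 25.8 in Ly6c2+ Treml4/Ace+ and 271 in patrolling monocytes, and in miR-146a-/- at 2.03, 40.9 and 275. Cd300ld went from 53.6 to 119.9 and 372 CPM in DKO and from 38.5 to 127 and 417 in miR-146a-/-. In both libraries each class lay above the one before it for both genes. Treated WT held 36.2 CPM of Cd300e in Ly6c2+ Treml4/Ace+ and 67.6 in patrolling monocytes, its 30 classical monocytes held no Cd300e UMI (upper limit 11.2 CPM), and young WT had only 19 cells in each of the first 2 classes.

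Cd300c2 also ran upward, with 352, 484 and 643 CPM in treated WT, 189.7, 364 and 723 in miR-146a-/- and 218, 396 and 751 in DKO. Cd300a changed less, with 398, 461 and 490.0 CPM in treated WT, 289.6, 474 and 442 in miR-146a-/- and 334, 491 and 488 in DKO. The classical cells were lowest in each. Cd300lb stood at 49.96, 56.5 and 78.2 CPM in miR-146a-/-, 61.1, 60.0 and 74.9 in DKO and 103, 58.2 and 67.6 in treated WT, so its order differed between libraries. Cd300lf ran downward in the knockout libraries, from 51.3 to 35.4 and 15.3 CPM in miR-146a-/- and from 61.7 to 37.8 and 22.4 in DKO. Treated WT did not show that fall, with 15.2, 29.8 and 19.1 CPM and intervals that overlapped.

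**Figure D2:**
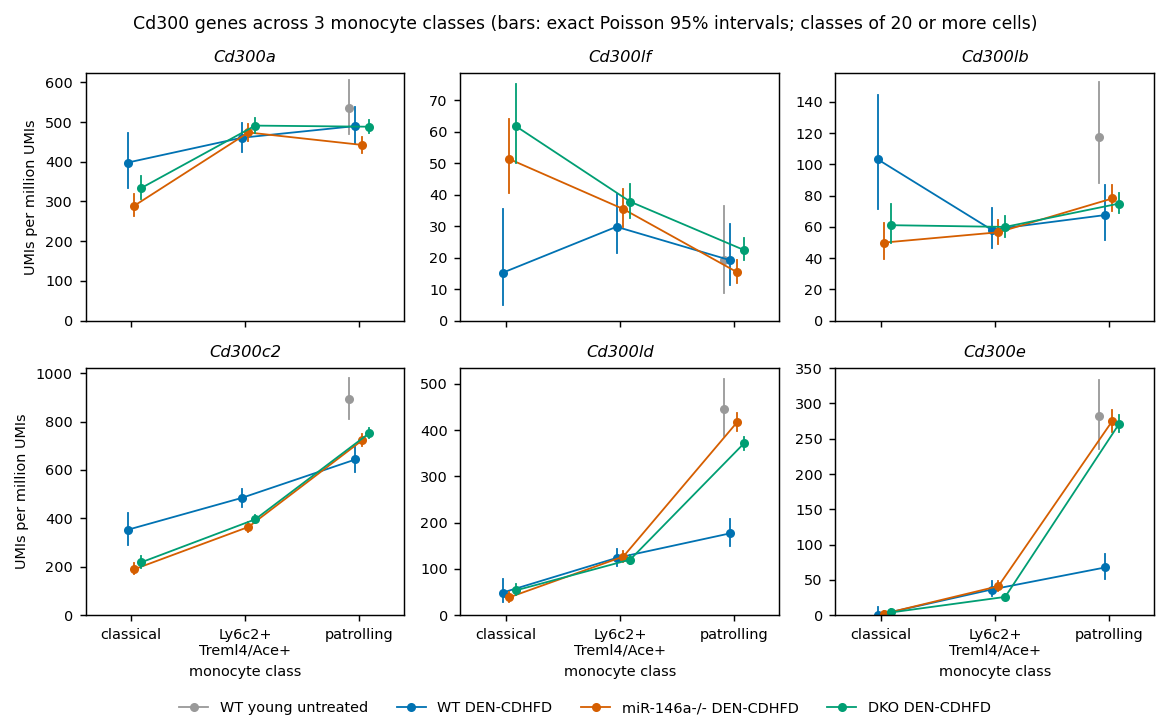
CPM of each member (vertical axis) in classical, Ly6c2+ Treml4/Ace+ and patrolling monocytes (horizontal axis), 1 line per library with exact Poisson 95% intervals; classes with fewer than 20 cells in a library are not drawn. In DKO, Cd300e goes from 3.74 to 25.8 and 271 CPM while Cd300lf goes from 61.7 to 37.8 and 22.4.

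Treated against young WT asks how the family stood in livers after carcinogen, diet and more weeks of age, which differ together here and cannot be told apart. Patrolling monocytes are the blood monocytes that crawl along vessel walls and clear debris, and 3 members were highest in them among the 9 myeloid classes when libraries were summed. Cd300e and Cd300ld were low in their treated WT cells and Cd300a nearly level. The treated WT library is also the reference for miR-146a-/-, so those comparisons share its values.

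In patrolling monocytes, Cd300e was 4.15-fold lower in treated than in young WT (3.05 to 5.75; log2 ratio -2.05) and Cd300ld 2.52-fold lower (2.04 to 3.12; log2 ratio -1.33). The other activating members moved less, with log2 ratios of -0.80 for Cd300lb and -0.47 for Cd300c2. Cd300a, the inhibitory member, had a log2 ratio of -0.13, from 535 CPM (471 to 606) in young WT to 490.0 (445 to 538) in treated WT, intervals that overlapped. Cd300lf had fewer than 20 UMIs in both libraries and was not counted. Of 5 members counted, 2 were at least 2-fold lower and 0 higher, where 1.82% of 5563 genes were lower and 5.64% higher in that class; the median log2 ratio of all genes was 0.00.

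Other genes moved with these values in the treated WT cells. The cDC2 list, with 7 of 7 genes detected and H2-Ab1 the most abundant, summed to 2385 CPM in young WT, 3527 in treated WT, 1200.4 in miR-146a-/- and 1418 in DKO, with Cd209a and Mgl2 at 0 in treated WT. More than 5 UMIs of H2-Ab1 were held by 16.9%, 50.5%, 9.45% and 15.7% of the class in these libraries. The mature dendritic cell list, 5 of 5 genes with Cd63 on top, stood at 19.2, 106, 13.6 and 11.8 CPM, and the patrolling list itself, 7 of 7 genes with Nr4a1 on top, at 4888, 3529, 4189 and 4056. Hemoglobin genes stood at 1592 CPM in treated WT, where 1 cell held 100% of the Hbb-bs UMIs, and at 2.44 CPM or less elsewhere.

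A stricter gate, added after these values were seen, required UMIs of both Treml4 and Ace and limited H2-Ab1 and hemoglobin. It left 41, 36, 411 and 597 cells. Cd300e then stood at 386 CPM in young WT, 134 in treated WT, 306 in miR-146a-/- and 332 in DKO, and Cd300ld at 568, 268, 454 and 431. Treated WT was still low for both, at log2 ratios to young WT of -1.51 and -1.08, which are smaller than under the main gate. What part the H2-Ab1 cells had in the rest was not tested.

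**Figure D3:**
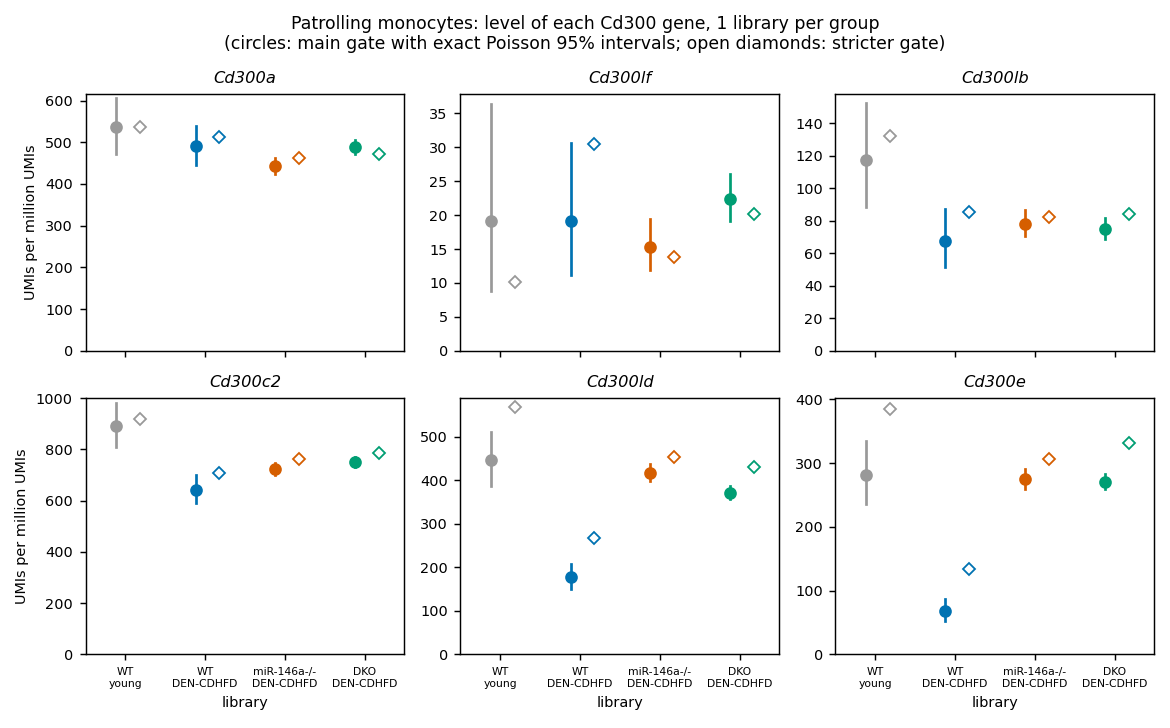
CPM of each member in patrolling monocytes (vertical axis) by library (horizontal axis), circles for the main gate with exact Poisson 95% intervals and open diamonds for the stricter gate. Cd300e is lowest in treated WT under both gates, at 67.6 and 134 CPM.

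Neutrophils and dendritic cells also held changes past 2-fold between the WT libraries. Cd300a in cDC1, the cross-presenting dendritic cells, rose from 23.0 CPM (18.4 to 28.4) to 54.5 (45.1 to 65.4), 2.37-fold (1.78 to 3.18). The mature dendritic cell list in cDC1, 5 of 5 genes with Ccl22 on top, held 8.01, 39.5, 18.5 and 39.8 CPM. Of 15 counted genes among other paired and inhibitory receptors, 10 were past 2-fold higher in treated WT cDC1 (median log2 ratio 1.79), beside 2.31% of 9109 genes higher and 1.51% lower. The hepatocyte list, 3 of 3 genes with Alb on top, held 41.1, 15.5, 14.5 and 9.21 CPM, and the part of these genes in the Cd300a value was not tested. In neutrophils Cd300lf fell from 489 CPM (351 to 664) to 184 (124 to 265), 2.64-fold lower, while Cd300c2 rose from 286 CPM (183 to 426) to 617 (500.4 to 753), 2.12-fold. The class as a whole differed between these libraries, with 31.5% of 1351 genes at least 2-fold higher in treated WT and 10.7% lower. Its own marker list, 12 of 12 genes with S100a9 on top, fell from 125045 to 29579 CPM, and the C1q macrophage list, 5 of 6 genes with Apoe on top, rose from 191 to 1978. The classical monocyte list, 7 of 7 genes with Lyz2 on top, rose from 3961 to 8785, and the part of these lists was not tested. Neutrophil profiles shifted by 0.19 on the log2 scale between these libraries under median-of-ratios scaling, and relative to that shift Cd300lf was 3.02-fold lower and Cd300c2 1.85-fold higher. Over 6 classes, 2 of 25 counted pairs of member and class were at least 2-fold higher and 3 lower, where 4.26% of 36966 pairs over all genes were higher and 2.55% lower. Without neutrophils, 1 of 20 pairs was higher and 2 lower, beside 3.22% and 2.25% over all genes.

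The comparison of miR-146a-/- with treated WT asks what loss of miR-146a changes under the same treatment and at the same age. In macrophages and monocytes this microRNA holds back signaling from pattern recognition receptors, and CD300 receptors act on the same cells by way of tyrosine motifs and adaptors. Cd300e was past 2-fold in 3 classes and Cd300ld in 2, each time higher in miR-146a-/-. The inhibitory members were not higher in patrolling monocytes. In small classes, Cd300a was past 2-fold higher in mature dendritic cells and lower in neutrophils, and Cd300lf was higher in classical monocytes.

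In patrolling monocytes, Cd300e was 4.04-fold higher in miR-146a-/- than in treated WT (3.14 to 5.37; log2 ratio 2.01) and Cd300ld 2.35-fold higher (2.01 to 2.80; log2 ratio 1.23). Cd300lb had a log2 ratio of 0.20, Cd300c2 of 0.17, Cd300a of -0.15 and Cd300lf of -0.35, none of them past 2-fold. So 2 of 6 members were at least 2-fold higher and 0 lower, beside 5.47% of 9045 genes higher and 5.64% lower. The miR-146a-/- levels of Cd300e and Cd300ld, 275 and 417 CPM, lay within the intervals of young WT. Under the stricter gate, Cd300e was still past 2-fold at a log2 ratio of 1.17, Cd300ld was at 0.75 and no longer past it, and Cd300lf went to -1.20, from 30.5 CPM in treated WT to 13.8. That treated WT value of Cd300lf rests on 10 UMIs in 36 cells.

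Besides the dendritic cell lists and hemoglobin, other marker genes in patrolling monocytes moved by over 2-fold between treated WT and miR-146a-/-. The C1q macrophage list, 6 of 6 genes with Apoe on top and Mertk at 0 in treated WT, held 1766, 1748, 837 and 1128 CPM, and the pDC list, 6 of 6 genes with Irf8 on top and Siglech and Klk1 at 0 in treated WT, held 267, 387, 175 and 194. Of the endothelial genes, Pecam1 alone rose, with 64.0, 47.3, 288 and 235 CPM, while Stab2, Clec4g and Kdr were at 7.88 CPM or less in every library. The plasma cell list, 4 of 4 genes with Sdc1 on top, held 6.40, 6.76, 30.7 and 14.4 CPM, and the T cell list, 6 of 6 genes with Cd3e on top, 19.2, 24.8, 8.32 and 9.64. The part of these genes in the Cd300e and Cd300ld ratios was not tested.

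C1q macrophages, the class gated on the C1q complement genes, held 15.1 CPM of Cd300e (4.91 to 35.3) in young WT, 15.2 (9.55 to 23.1) in treated WT, 84.6 (69.5 to 102) in miR-146a-/- and 106 (94.8 to 118) in DKO. The WT libraries were both low and did not overlap the knockout ones, and miR-146a-/- was 5.45-fold above treated WT (3.49 to 9.22). The list of Fcgr4 and Negr1, 2 of 2 genes with Fcgr4 on top, moved with it in this class, at 99.9, 74.1, 298 and 464 CPM, and the patrolling list, 7 of 7 genes with Nr4a1 on top, stood at 1096, 1303, 1294 and 1652. The Kupffer cell list, 5 of 5 genes with Cd5l on top, held 236, 187, 13.1 and 82.1 CPM, the endothelial list, 4 of 4 genes with Pecam1 on top, 78.7, 17.3, 79.99 and 77.9, and the mature dendritic cell list, 5 of 5 genes with Cd63 on top, 329.9, 340.2, 159 and 151. The T cell list, 6 of 6 genes with Cd3e on top, fell from 60.5 to 30.5, 13.1 and 6.12 CPM. The NK and ILC1 list, 5 of 5 genes with Itga1 on top, fell from 84.7 to 26.3, 6.92 and 6.76, and the part of these lists was not tested. With the C1q cells that held Treml4 or Ace left out, Cd300e stood at 0 CPM (upper limit 20.04) in young WT, 8.15 (2.65 to 19.0) in treated WT, 75.5 (49.3 to 111) in miR-146a-/- and 127 in DKO. Leaving them out also changed other members. Cd300ld in the remaining cells was at 29.0 CPM (13.9 to 53.4) in miR-146a-/-, on 10 UMIs in 34 cells. It was at 65.2 CPM (46.6 to 88.8) in treated WT, and these intervals overlapped. The whole class had 121 CPM in miR-146a-/- and 72.1 in treated WT.

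In cDC2, which present antigen to CD4 T cells, 3 of 6 members were past 2-fold higher in miR-146a-/- and 0 lower, beside 3.19% of 7700 genes higher and 2.34% lower in the class. Cd300ld stood at 22.0 CPM in young WT, 18.8 in treated WT, 62.2 in miR-146a-/- and 68.0 in DKO. Cd300e stood at 11.01, 11.6, 35.2 and 26.4 CPM and Cd300lb at 9.63, 7.16, 20.7 and 23.2. Both WT libraries were below both knockout libraries for all 3 genes, and the treated WT intervals met neither, while those of young WT overlapped DKO for Cd300e and both for Cd300lb. The DKO value of Cd300e was no higher than in T cells of that library, where CD8 T cells held 28.6 CPM and CD4 T cells 29.4. In miR-146a-/- both T cell classes stood below cDC2 for this gene. Cd300a, at 337, 335, 512 and 533 CPM, and Cd300c2, at 351, 335, 409.8 and 444, were also higher in miR-146a-/- than in treated WT but not past 2-fold. The ratios of miR-146a-/- to treated WT were 3.25 (2.06 to 5.57) for Cd300ld, 2.93 (1.64 to 5.99) for Cd300e and 2.77 (1.32 to 7.22) for Cd300lb. The classical monocyte list, 7 of 7 genes with Lyz2 on top, was at 1332, 1059, 3135 and 1321 CPM in this class. The Kupffer cell list, 5 of 5 genes with Timd4 on top, was at 4.13, 3.58, 46.7 and 48.6 CPM, the list of Fcgr4 and Negr1, 2 of 2 genes with Fcgr4 on top, at 39.9, 8.95, 32.3 and 31.1, and the C1q macrophage list, 6 of 6 genes with Apoe on top, at 81.2, 29.5, 167 and 54.6. The part of these lists was not tested. In cDC2 without Treml4 and Ace, Cd300ld was at 14.5 CPM in treated WT and 53.1 in miR-146a-/-, Cd300e at 10.4 and 30.6, and Cd300lb at 4.16 and 20.1.

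The remaining changes past 2-fold rested on small classes. In mature dendritic cells, 41 in treated WT and 22 in miR-146a-/-, Cd300a rose from 39.4 to 132 CPM and Cd300c2 from 25.8 to 76.7, while the list of mature dendritic cell genes, 5 of 5 with Ccr7 on top, fell from 8264 to 4123. Other lists moved in this class as well. The Kupffer cell list, 2 of 5 genes with Timd4 on top, went from 1.36 to 46.9 CPM, the neutrophil list, 5 of 12 genes with Il1r2 on top, from 12.2 to 44.8 and the T cell list, 5 of 6 genes with Cd8a on top, from 63.8 to 21.3, and the part of these lists in Cd300a and Cd300c2 was not tested. In classical monocytes, 30 and 81 cells, Cd300lf rose from 15.2 to 51.3 CPM on 5 against 76 UMIs (3.09-fold, 1.39 to 10.7), and Cd300lb went from 103 CPM (71.5 to 144) to 49.96 (39.2 to 62.7). Marker lists differed in this class as well. In the usual order of libraries, the neutrophil list, 10 of 12 genes with S100a8 on top, held 169, 106, 1862 and 2522 CPM, with 8 genes at 0 in treated WT and 3 in miR-146a-/-. The C1q macrophage list, 6 of 6 genes with Apoe on top, held 1285, 2115, 515 and 912, and the cDC2 list, 7 of 7 genes with H2-Ab1 on top, 2445, 2108, 863 and 1147. The patrolling list, 7 of 7 genes with Nr4a1 on top, held 731, 1294, 627 and 799 CPM. The cDC1 list, 4 of 5 genes with Naaa on top, held 182, 103, 228 and 200. The hepatocyte list, 2 of 3 genes with Alb on top, held 30.3, 36.5, 7.43 and 4.99. The mature dendritic cell list, 2 of 5 genes with Cd63 on top, held 12.98, 63.8, 7.43 and 6.85 CPM, and the part of these lists in Cd300lf and Cd300lb was not tested. In neutrophils Cd300a fell from 528 CPM (421 to 654) to 163 (139.8 to 189.7) and Cd300c2 from 617 CPM to 224 (197 to 255). The 23 neutrophils of treated WT had a median of 3636 UMIs against 14758.5 in miR-146a-/-, and their own marker list, 12 of 12 genes with S100a9 on top, stood at 29579 against 221954 CPM. The C1q macrophage list, 5 of 6 genes with Apoe on top, held 191, 1978, 267 and 555 CPM in the neutrophils of the 4 libraries, the cDC2 list, 7 of 7 genes with Sirpa on top, 369.8, 1272, 349 and 561, and the pDC list, 4 of 6 genes with Irf8 on top, 23.9, 369, 73.6 and 98.7. Their part in the Cd300a and Cd300c2 values was not tested. Neutrophil profiles shifted by -0.33 on the log2 scale between these libraries, and relative to that shift Cd300a was 2.57-fold and Cd300c2 2.19-fold lower.

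Over the 9 myeloid classes, 9 of 42 counted pairs of member and class were at least 2-fold higher in miR-146a-/- and 3 lower, beside 4.77% of 65221 pairs over all genes higher and 4.87% lower. Cd300e, Cd300ld and Cd300lb gave 6 of the 9 higher pairs. A pair was counted with 20 UMIs in 1 of its 2 libraries, and 4 of the 9 reached that only in miR-146a-/-: Cd300lf in classical monocytes, Cd300e and Cd300lb in cDC2 and Cd300c2 in mature dendritic cells. With at least 50 UMIs in 1 library, 7 of 40 pairs were higher and 3 lower, beside 3.33% and 3.32% over all genes. Pairs of 1 gene in several classes come from the same libraries and are not separate results. Without neutrophils, 9 of 36 pairs were higher and 1 lower, beside 4.13% and 3.92% over all genes. With an upper limit of 4000 features per cell, 5 of 37 pairs were higher and 4 lower, beside 4.67% and 6.73%.

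**Figure D4:**
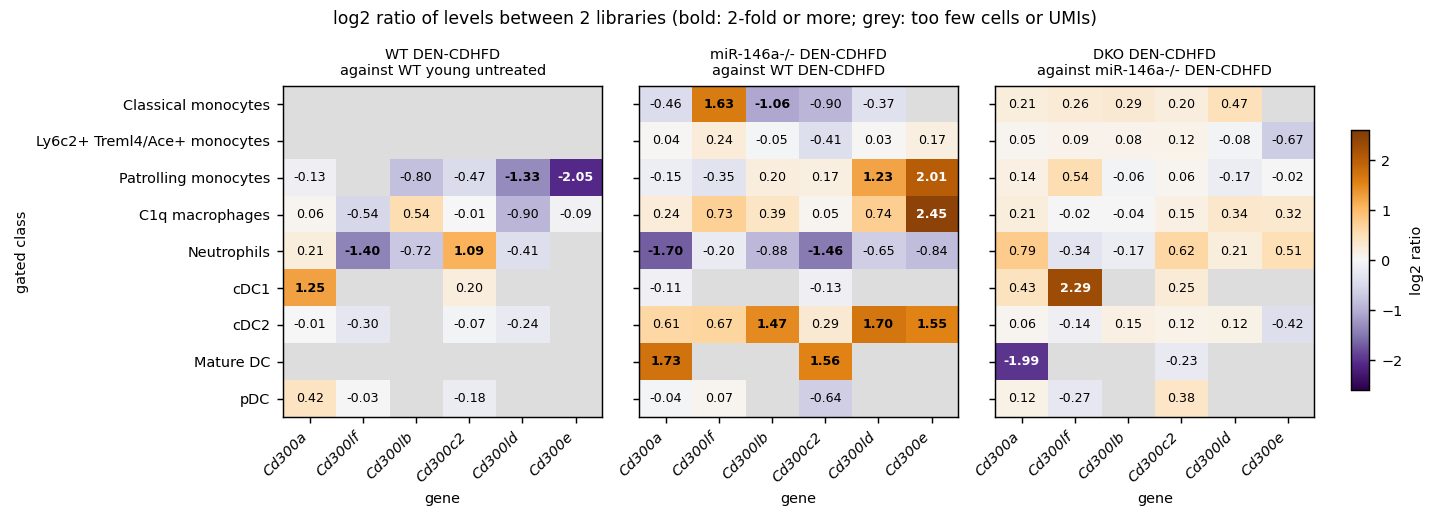
Heat map of log2 ratios of CPM for each member and myeloid class in the 3 comparisons, bold where the change was 2-fold or more and grey where a class had under 20 cells or a pair under 20 UMIs. Patrolling monocytes hold -2.05, 2.01 and -0.02 for Cd300e.

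The comparison of DKO with miR-146a-/- asks what the loss of Ccl5, a chemokine that draws T cells and monocytes, adds when miR-146a is already absent. It shares the miR-146a-/- library with the previous comparison. In patrolling monocytes the inhibitory and the activating members had close levels in the 2 libraries, while over all kept cells the levels of Cd300e, given above, differed.

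Cd300e in patrolling monocytes had a DKO to miR-146a-/- ratio of 0.985 (0.918 to 1.06), so a change of 2-fold lay far outside its interval. The log2 ratios of Cd300ld, Cd300lb, Cd300c2 and Cd300a were -0.17, -0.06, 0.06 and 0.14. Cd300lf, the lowest member, had the largest log2 ratio at 0.54 (1.45-fold, 1.10 to 1.96). None of 6 members was past 2-fold, beside 1.51% of 9863 genes higher and 0.608% lower.

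Over the 9 myeloid classes, 1 of 43 counted pairs was at least 2-fold higher in DKO and 1 lower, beside 1.75% of 69903 pairs over all genes higher and 1.13% lower, so the counts are near the background. The higher pair was Cd300lf in cDC1, with 20 against 3 UMIs, or 7.37 against 1.32 CPM, so it was counted only through its DKO value, which was just at the minimum. In cDC1 the mature dendritic cell list, 5 of 5 genes with Ccl22 on top, went from 18.5 CPM in miR-146a-/- to 39.8 in DKO, and the C1q macrophage list, 6 of 6 genes with Apoe on top, held 43.3, 45.6, 65.1 and 23.2 in the 4 libraries. Of 14 counted paired and inhibitory receptor genes, 8 were past 2-fold higher in DKO cDC1 (median log2 ratio 1.17), beside 1.58% of 8520 genes higher and 1.07% lower, and their part in the Cd300lf value was not tested. The lower one was Cd300a in mature dendritic cells, which went from 132 to 32.6 CPM in 22 and 32 cells, where the C1q macrophage list, 5 of 6 genes with Apoe on top, went from 85.3 to 38.4 CPM and the list of Fcgr4 and Negr1, 2 of 2 genes with Fcgr4 on top, from 4.26 to 23.05, a part that was not tested. Without neutrophils the counts were 1 and 1 of 37, beside 1.63% and 1.15%.

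To see how members combine in single cells, each cell was thinned to 2000 UMIs; 75 gated cells of young WT, 63 of treated WT, 52 of miR-146a-/- and 80 of DKO were shallower and left out. Cd300c2 was found in 81.4%, 71.1%, 75.8% and 76.1% of patrolling monocytes in these libraries, and Cd300a in 69.5%, 61.1%, 57.3% and 58.8%. Cd300ld was found in 55.9% of young WT (42.4 to 68.8), 30.0% of treated WT (20.8 to 40.6), 54.6% of miR-146a-/- and 52.9% of DKO. Cd300e was found in 28.8% (17.8 to 42.1), 13.3% (7.08 to 22.1), 45.2% (40.9 to 49.6) and 44.7% (41.2 to 48.1). Treated WT was the lowest library for both, though its Cd300e interval overlapped young WT. Young WT lay below the knockout libraries in its Cd300e share but not in CPM, so no order between young WT and the knockout libraries is read from those shares. Without thinning, Cd300e was in 71.2%, 27.5%, 77.1% and 77.8% of the class and Cd300ld in 83.1%, 62.6%, 89.4% and 87.4%.

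B cells are set beside these shares, at median depths of 5664, 6834.5, 7084 and 6789.5 UMIs against 7084, 9940, 7203 and 6909.5 for patrolling monocytes. Cd300e was found in none of the thinned B cells of young WT, treated WT or miR-146a-/-, with upper limits of 0.299%, 0.531% and 0.794%, and in 0.420% of those of DKO. Cd300ld was at 0.162% or less of B cells in every library. Cd300lf was found in 1.69%, 5.56%, 1.91% and 3.96% of patrolling monocytes and in 1.06%, 1.73%, 1.08% and 1.12% of B cells. Since B cells held more of this gene than CD8 T cells did, its shares are given without a reading against them.

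Most patrolling monocytes held more than 1 kind of CD300 transcript. At least 1 member was found in 98.3% of the class in young WT, 92.2% in treated WT, 96.6% in miR-146a-/- and 97.2% in DKO, and at least 3 members in 55.9%, 26.7%, 51.0% and 49.9%. Treated WT was the low library for cells with 3 or more. B cells with any member made up 1.38%, 3.46%, 1.73% and 2.66%. In C1q macrophages 16.1%, 14.6%, 25.0% and 22.2% of cells held at least 3 members, and in cDC2 4.44%, 3.17%, 16.9% and 14.9%.

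Cd300e and Cd300ld were also found together in single cells. Among patrolling monocytes with a Cd300ld UMI, Cd300e was found in 39.4% in young WT, 29.6% in treated WT, 50.7% in miR-146a-/- and 49.9% in DKO. Among those without one, it was found in 15.4%, 6.35%, 38.7% and 38.8%. The share was higher beside Cd300ld in 4 of 4 libraries, but the intervals overlapped in all but DKO (45.1% to 54.7% with Cd300ld and 33.9% to 43.8% without), and the young WT and treated WT values rest on 33 and 27 cells with Cd300ld. Beside Cd300a the order differed between libraries, with Cd300e in 26.8%, 9.09%, 48.7% and 40.4% of cells with Cd300a and in 33.3%, 20%, 40.6% and 50.7% of those without. Here too the intervals overlapped in all but DKO, where Cd300e was rarer beside Cd300a (36.0% to 44.9% with Cd300a and 45.3% to 56.1% without). Without thinning, Cd300e was in 77.6% of cells with Cd300ld and 40.0% of those without Cd300ld in young WT, the latter from 10 cells. These values were 36.8% and 11.8% in treated WT, 79.9% and 53.6% in miR-146a-/-, and 81.4% and 52.4% in DKO. A deeper cell shows more of both genes, so the values without thinning are not read as co-detection. With thinning to 1000 UMIs, the shares were 21.7% and 19.4% in young WT and 16.7% and 8.22% in treated WT. They were 33.0% and 24.5% in miR-146a-/- and 31.5% and 26.8% in DKO.

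Genes with a like pattern were sought over 55 sums of a class in a library and 10229 genes, points that share libraries and so are not independent. Cd300a and Cd300c2 were most like each other, with a correlation of log2(CPM + 1) of 0.973, and next came Sirpa (0.958), Gm9733 (0.956), Alpk1 (0.953) and Nfam1 (0.9495) for Cd300a and Slc8a1 (0.970), Alpk1 (0.963), Lrrc25 (0.955) and Csf1r (0.953) for Cd300c2. Cd300lb was most like Gm5150 (0.970), Cd300ld (0.958), Sirpb1c (0.955), Pilrb1 (0.955) and Trem3 (0.954). Cd300ld was most like 6430548M08Rik (0.960), Pilra (0.958), Cd300lb (0.958), Lst1 (0.957) and Pilrb2 (0.953). Cd300e was most like Fcgr4 (0.905), Lilra5 (0.886), Ccdc192 (0.882), Slc12a2 (0.881) and Cd300ld3 (0.866). Cd300lf was most like Milr1 (0.811), Adssl1 (0.806), B430306N03Rik (0.803), Fgr (0.789) and Rnf13 (0.779), and its correlation with Cd300e (0.443) was the lowest among member pairs.

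The adaptors and signaling proteins that CD300 receptors use formed a list of 13 genes. In patrolling monocytes Tyrobp stood at 3795 CPM in young WT, 3641 in treated WT, 3577 in miR-146a-/- and 3836 in DKO, and Fcer1g at 3981, 3851, 4113 and 4214. All 13 genes of this list were counted in the class, and 0 were past 2-fold in any of the 3 comparisons, with median log2 ratios of -0.06, 0.23 and -0.08. Hcst (DAP10) held 87.5, 58.6, 107 and 108 CPM, Ptpn11 111, 72.1, 85.2 and 82.1, and Plcg2 239, 187, 279.9 and 219. Grb2 held 269, 395, 327 and 309 CPM, Syk 286, 406, 390.3 and 364, and Fgr 567, 421, 597 and 539.

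Other paired and inhibitory receptors of myeloid cells, a list of 20 genes, held genes that moved in each direction in patrolling monocytes. Between the WT libraries 3 of 16 counted genes were past 2-fold higher and 0 lower, led by Trem2, from 19.2 to 64.2 CPM, and Lilr4b, from 74.7 to 185. Trem2 reached 20 UMIs only in treated WT, and its ratio interval was 1.64 to 7.68. In miR-146a-/- against treated WT, 1 of 18 was higher (Siglece, 20.3 to 45.8 CPM) and 4 lower, led by Clec12a, from 166 to 19.9 CPM, and Lilr4b, from 185 to 76.7. Siglece reached 20 UMIs only in miR-146a-/-, and its ratio interval was 1.39 to 3.88. In DKO against miR-146a-/-, 1 of 18 was higher, Clec12a from 19.9 to 117 CPM, and 0 lower. Over all genes counted in the class, 5.64% were higher and 1.82% lower between the WT libraries. These shares were 5.47% and 5.64% in miR-146a-/- against treated WT, and 1.51% and 0.608% in DKO against miR-146a-/-. The list medians were -0.20, 0.12 and 0.24 on the log2 scale. Of the named genes not past 2-fold, Sirpb1c went from 252 to 133 CPM and Sirpb1a from 271 to 179 between the WT libraries, and Trem1 from 34.9 CPM in treated WT to 65.9 in miR-146a-/- and 50.4 in DKO. From miR-146a-/- to DKO, Trem2 went from 36.8 to 51.99 CPM and Sirpa from 431 to 375.

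Phosphatidylserine, the ligand of Cd300a, has other receptors and bridging proteins, and 14 of their genes formed the last list. Few reached 20 UMIs in patrolling monocytes. Of 3 counted between the WT libraries, 1 was past 2-fold higher, Axl from 32.0 to 92.4 CPM (2.81-fold, 1.65 to 5.39). Axl reached 20 UMIs only in treated WT, so it was counted only through its higher value. Of 4 counted in miR-146a-/- against treated WT, 3 were lower, led by Axl, from 92.4 to 10.3 CPM, and Havcr2, from 128 to 34.6. Of 6 counted in DKO against miR-146a-/-, 0 were past 2-fold. Over all genes counted in the class, 5.64% were higher and 1.82% lower between the WT libraries. These shares were 5.47% and 5.64% in miR-146a-/- against treated WT, and 1.51% and 0.608% in DKO against miR-146a-/-. The list medians were -0.14, -1.59 and 0.27 on the log2 scale. Of the named genes not past 2-fold, Cd36 went from 258 to 235 CPM and Havcr2 from 171 to 128 between the WT libraries, and Pros1 from 19.1 CPM in treated WT to 36.6 in miR-146a-/- and 33.3 in DKO. From miR-146a-/- to DKO, Stab1 went from 3.29 to 2.99 CPM, Axl from 10.3 to 13.7 and Havcr2 from 34.6 to 48.3.

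Among the other Cd300 genes, Cd300ld3 had the most UMIs of those named after Cd300ld. The promoters of Cd300ld and Cd300ld3 were 70.0% identical over 257 aligned bases, while Cd300ld4 and Cd300ld5 had the same 300 bases. Cd300ld3 stood at 215 CPM (176 to 262) in patrolling monocytes of young WT, 22.5 (13.8 to 34.8) in treated WT, 86.7 (78.4 to 95.7) in miR-146a-/- and 78.9 (72.6 to 85.5) in DKO. Treated WT was again the low library. Cd300c was a pDC gene at 446, 370.3, 343 and 388 CPM, where Cd300c2 stood at 114, 100.1, 64.1 and 83.4. The promoters of Cd300c and Cd300c2 were 33.2% identical over 277 aligned bases. Each identity is the highest found over many offsets, and other pairs were alike, at 34.3% for Cd300a with Cd300c2 and 33.0% for Cd300a with Cd300e. The Cd300c window ends at chr11:114960757, inside the annotated gene, which is on the minus strand and ends at 114969157. Cd300ld2, Cd300ld4 and Cd300ld5 had 10 UMIs or fewer in each library.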

How the data were processed

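The authors deposited unnormalized UMI counts by gene and cell barcode for 4 libraries, 1 per group, made with Cell Ranger 7.0.1 against mm10 by the submitters' processing notes. The methods of the study name another Cell Ranger version, and whether intronic reads were counted is not given in the sources used here. A cell was kept if it had 600 to 6000 features and no more than 5% of its UMIs from mitochondrial genes; no doublet caller was run. Marker gates set the classes; thresholds were adjusted after Cd300 levels had been seen. The members, the gene lists and the Negr1 Fcgr4 class were chosen with earlier results of these data known. Counts were summed per class and library as CPM with exact Poisson intervals. Ratios used a prior of 0.5 counts, an exact conditional binomial interval and classes of at least 20 cells in both libraries; a gene counted with at least 20 UMIs in 1 of the 2 libraries, and a change was called at 2-fold. Shares used cells thinned to 2000 UMIs (seed 1) with exact Clopper-Pearson intervals. Cells are not replicates, so no test was run. All 6 members, the other Cd300 rows, Ccl5, and the 2 largest changes each way in patrolling monocytes in the lists of adaptors, paired receptors and phosphatidylserine receptors were named, with the 5 genes most like each member. Alternatives changed cell limits, gates, scaling, prior, UMI minimum, fold, background and thinning. Protein identity was not analysed here. Python 3.11.15, numpy 2.4.6, scipy 1.17.1 and pandas 2.3.3 were used, and the code was tested on simulated data.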

Additional observations from a re-analysis of the deposited data

How the results depend on the processing

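The counts of called pairs and the levels and ratios in patrolling monocytes were computed again under each alternative that applies to them. Shares in patrolling monocytes were computed again only without thinning and with thinning to 1000 UMIs. Co-detection was computed again under these and under the stricter patrolling gate. Likeness, the gene lists and the motifs were not computed again. Outside patrolling monocytes, single values were computed again only for C1q macrophages and cDC2 without Treml4 and Ace and for neutrophil ratios under size factors. The stricter patrolling gate changed its marker, H2-Ab1 and hemoglobin limits together, and the other alternatives 1 choice each. The counts of member and class pairs past 2-fold were within 1.5 times the reported ones in 37 of 45 cases. With a fold of 1.5 in place of 2, the counts went from 5 to 8 for treated against young WT, from 12 to 21 for miR-146a-/- against treated WT and from 2 to 5 for DKO against miR-146a-/-; a lower threshold takes in more pairs. With neutrophils left out, the count for treated against young WT was 3, by fewer pairs. The DKO against miR-146a-/- count was 1 with an upper limit of 4000 features, 1 with 1 more marker UMI per gate, 1 with at least 50 UMIs and 4 with Treml4 or Ace cells left out of C1q macrophages and cDC2; the cause was not tested. Splits by direction moved within such totals. An upper limit of 4000 features gave 5 higher and 4 lower for miR-146a-/- against treated WT in place of 9 and 3, means over cells 9 and 5, a prior of 5 gave 8 and 5, no Cd3 UMI 9 and 4, 1 more marker UMI 8 and 2, and subtracting the B-cell level 11 and 3. Over all genes the prior of 5 gave 1.58% higher and 6.48% lower, and subtracting the B-cell level 16.95% and 33.8%. Subtracting the B-cell level gave 0 higher and 2 lower for DKO against miR-146a-/- in place of 1 and 1. For treated against young WT, 1 higher and 3 lower in place of 2 and 3 were found with size factors, with no Cd3 UMI in myeloid cells, with 1 more marker UMI and with a prior of 5, and 2 and 4 with the B-cell level subtracted.

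Log2 ratios in patrolling monocytes kept their side of 2-fold in 194 of 198 cases. A lower limit of 200 features left the same patrolling monocytes in every library, so its log2 and CPM cases could not move. The stricter patrolling gate, chosen after seeing the data, took Cd300ld in miR-146a-/- against treated WT to 0.75. It took Cd300lf, on 10 UMIs in treated WT, to -1.20 in that comparison and to 1.43 in treated against young WT. With the B-cell level subtracted, that last value was -1.23; the gene was too low to be counted there, and no direction is read from it. CPM values moved past their interval in 26 of 240 cases, 13 of them under the stricter gate. Shares of cells moved in 43 of 48 cases, since thinning sets how many UMIs a cell can show. Patrolling monocytes stayed the highest myeloid class in a like number of member and library pairs in 10 of 10 settings. No value was computed under size factors, which are set within a class. Some of these highest places were ties within counting error, and some settings left the patrolling monocytes unchanged. Cd300e was more frequent beside Cd300ld in 4 of 4 libraries in 3 of 3 settings. The setting without thinning leaves depth uneven between cells, so it cannot tell co-detection from depth. The alternatives on C1q macrophages and cDC2, neutrophils, Negr1 and co-detection were also added after seeing the data. No paired analysis was possible because each group is 1 library.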

Other observations

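Cells marked by Negr1 and Fcgr4 that met no other gate numbered 1 in each of the WT libraries, 20 in miR-146a-/- and 314 in DKO, so the class is mostly 1 library. Cd300e stood there at 584 CPM (449 to 748) in miR-146a-/- and 623 (587 to 661) in DKO, above patrolling monocytes of the same libraries, and Cd300lf at 352 and 214.

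Lymphocyte classes held more Cd300e in DKO than in the other libraries. In the usual order of libraries, young WT, treated WT, miR-146a-/- and DKO, CD8 T cells held 0.534, 0.390, 5.68 and 28.6 CPM (26.2 to 31.1 for DKO), and CD4 T cells 0, 0.723, 7.73 and 29.4. B cells held 0.109, 0.161, 0.243 and 6.82 (4.99 to 9.10). Other members also varied by library in CD8 T cells. The highest library value was 39.0 CPM for Cd300c2 (median 8.49), 21.1 for Cd300a (6.12), 12.6 for Cd300ld (3.39) and 2.79 for Cd300lb (0.823). For Cd300lf the highest library was DKO, at 9.80 CPM (median 1.55). The source of these UMIs was not tested.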
